A study of Mus musculus with 21 samples.

Results

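The 10 genes described here encode the core of the TGF-beta pathway. They comprise the ligands Tgfb1, Tgfb2 and Tgfb3, the receptors Tgfbr1, Tgfbr2 and Tgfbr3, and the SMAD genes Smad2, Smad3, Smad4 and Smad7. They were taken by symbol from the 24623 genes of the table, whatever their values, and all 10 were present. Their transcript levels come from RNA sequencing of murine pancreatic tumour cells that had grown under the skin of C57BL/6 mice for 3 weeks and were then sorted from the tumours. No treatment was given. The cells belonged to the tumour cell clones 6694c2 and 6419c5. Each clone was represented by 2 lines labelled EPHA2-KO, called KOA and KOB in the table, and by the line with the clone name alone, called WT here. EPHA2, encoded by Epha2, belongs to the ephrin receptor family of tyrosine kinases. Clone 6694c2 had 4 libraries of each line and clone 6419c5 had 3 of each, 21 libraries in all. A KO group therefore rests on 2 lines and a WT group on 1 line, and a difference between a KO line and its WT line cannot be told apart from other differences between those lines. How EPHA2 was edited is not given in the sources used here, nor whether each library of a line represents a different mouse, so the p-values measure only the spread between libraries.

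TGF-beta is secreted in a latent form, held by its own propeptide and by latent TGF-beta binding proteins in the matrix, and is freed by integrins and proteases. The active ligand binds the type II receptor Tgfbr2, which recruits and phosphorylates the type I receptor Tgfbr1. Tgfbr3, or betaglycan, is a coreceptor that presents ligand to Tgfbr2 and matters most for TGF-beta2. Tgfbr1 phosphorylates Smad2 and Smad3, which enter the nucleus with the common partner Smad4 and regulate genes, among them Smad7, whose product blocks the receptors in a negative feedback. In pancreatic cancer the pathway restrains growth early and later promotes mesenchymal change, matrix production and immune evasion, and SMAD4 is among the genes most often lost in the human disease.

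The start regions of 3 genes that were lower in the KOB line of 6694c2 (Tgfb1, Tgfb2 and Smad3) are shown first, with that of Tgfbr2, which did not pass the test there. Each runs 5′ to 3′ on the strand of the gene, from 250 bases before to 50 bases after the start that RefSeq gives (build GRCm38.p6). Capitals mark matches, on either strand, to the GC box GGGCGG, the SMAD box CAGAC and the AP-1 site TGANTCA. RefSeq start regions were matched for 5 of the 10 genes. The fifth, Tgfbr1, was also lower in that line and has 2 start regions, which are not printed because the data do not tell them apart; one holds 2 GC boxes and the other 1 SMAD box. The sequences lie at chr7:25686752-25687051 on the plus strand (Tgfb1), chr1:186705940-186706239 on the minus strand (Tgfb2), chr9:63757945-63758244 on the minus strand (Smad3) and chr9:116175314-116175613 on the minus strand (Tgfbr2).
Tgfb1: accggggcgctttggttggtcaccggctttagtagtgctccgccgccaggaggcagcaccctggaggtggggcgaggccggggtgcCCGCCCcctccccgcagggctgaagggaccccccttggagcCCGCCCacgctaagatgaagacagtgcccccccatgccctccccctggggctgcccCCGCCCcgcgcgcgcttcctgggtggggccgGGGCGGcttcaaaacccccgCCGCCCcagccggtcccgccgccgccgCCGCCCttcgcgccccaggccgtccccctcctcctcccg
Tgfb2: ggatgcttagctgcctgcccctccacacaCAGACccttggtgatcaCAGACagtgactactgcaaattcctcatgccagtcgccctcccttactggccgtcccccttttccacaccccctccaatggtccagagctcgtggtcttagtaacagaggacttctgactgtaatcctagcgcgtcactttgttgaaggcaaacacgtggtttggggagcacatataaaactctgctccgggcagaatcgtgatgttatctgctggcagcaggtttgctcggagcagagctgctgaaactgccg
Smad3: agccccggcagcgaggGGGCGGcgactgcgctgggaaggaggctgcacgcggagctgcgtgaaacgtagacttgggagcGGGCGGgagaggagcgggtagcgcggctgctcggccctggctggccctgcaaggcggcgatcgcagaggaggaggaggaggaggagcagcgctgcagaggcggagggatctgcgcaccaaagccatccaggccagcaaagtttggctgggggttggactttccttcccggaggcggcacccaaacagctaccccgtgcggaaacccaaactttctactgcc
Tgfbr2: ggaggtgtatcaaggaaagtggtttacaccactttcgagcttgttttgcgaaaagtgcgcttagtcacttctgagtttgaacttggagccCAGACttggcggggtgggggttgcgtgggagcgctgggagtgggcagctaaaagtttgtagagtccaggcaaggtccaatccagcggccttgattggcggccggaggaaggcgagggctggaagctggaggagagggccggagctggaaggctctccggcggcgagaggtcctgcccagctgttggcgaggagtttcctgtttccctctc
The Tgfb1 region was the richest in G and C, at 77.0%, against a median of 52.7% over all 32851 start regions. It held 6 GC boxes, 5 of them before the start at 164, 123, 67, 36 and 16 bases, and no SMAD box or AP-1 site. The Tgfb2 region held 2 SMAD boxes, at 221 and 204 bases before the start, and no GC box. The annotated span of Tgfb2 reaches beyond this start, so other starts of the gene are not covered. The Smad3 region held 2 GC boxes, at 234 and 171 bases before the start. The Tgfbr2 region held 1 SMAD box, at 160 bases before the start. Of all start regions, 35.7% held a GC box, 49.6% a SMAD box and 7.81% an AP-1 site. A match describes letters in this window, not a bound site.

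The values were TPM, a relative transcript abundance corrected for transcript length, so the number of reads behind each library is unknown and levels can be compared between genes. Tgfb1 was the main ligand by level, with 69.6% to 95.4% of the summed TPM of the 3 ligands in each library. Over the 21 libraries Tgfb1 averaged 156 TPM, Smad3 83.1, Smad4 67.7 and Smad7 57.6. Tgfbr2, Tgfbr1, Tgfb3 and Smad2 averaged 36.7, 22.8, 19.8 and 12.4 TPM. Tgfb2 (2.45 TPM) and Tgfbr3 (1.84 TPM) were the scarcest. All 10 genes passed the filter of 1 TPM in 3 libraries, 8 of them with 1 TPM in all 21. Tgfb2 reached 1 TPM in 16 libraries, and Tgfbr3 in 6, of which 3 were 6419c5 WT, 2 were 6694c2 WT and 1 was 6694c2 KOA.

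**Figure D1:**
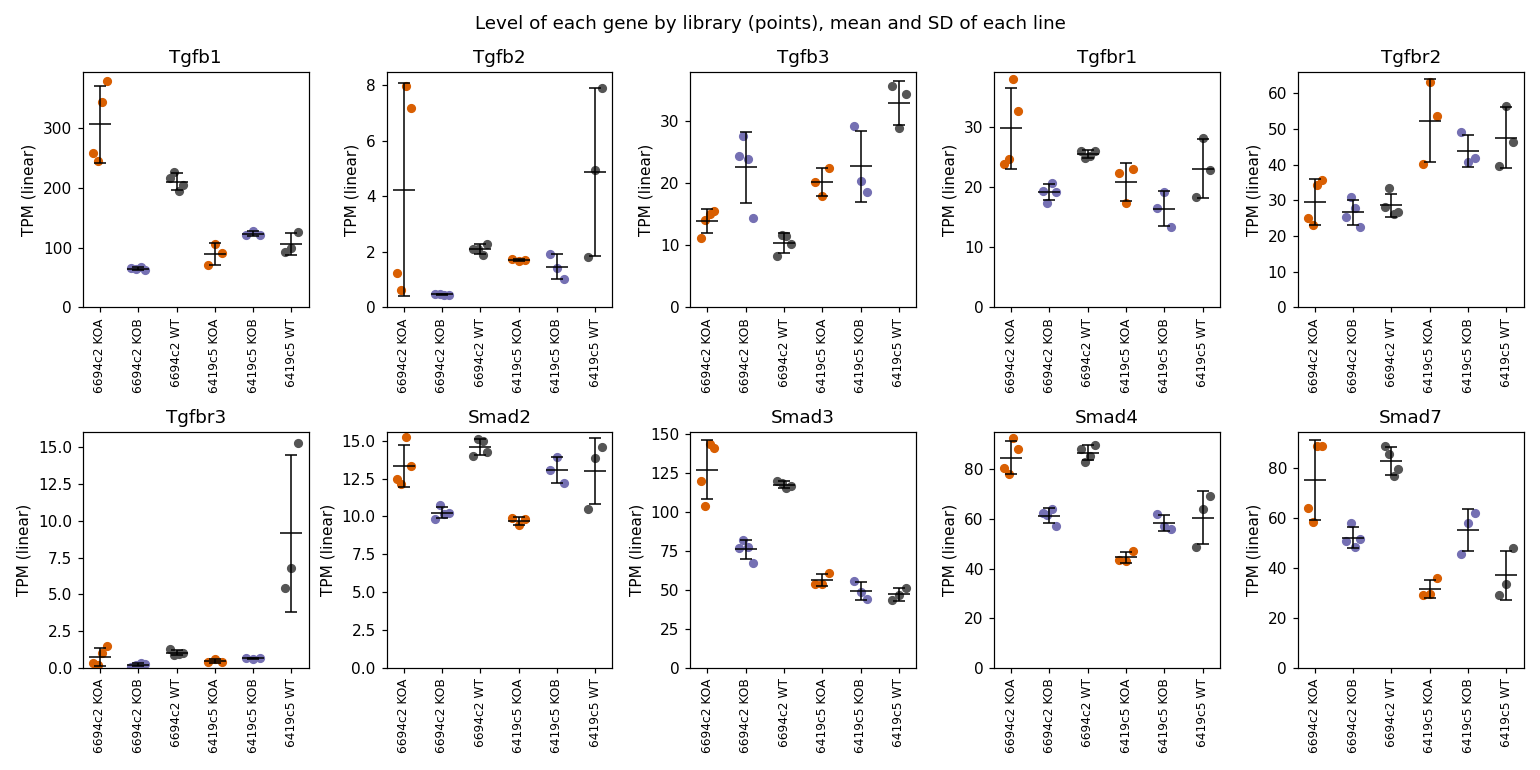
TPM of each of the 10 genes (linear axes from 0) in every library of the 6 lines, with points for libraries and lines for the mean and SD. Tgfb1 sits at 63.0 to 67.3 TPM in 6694c2 KOB, below every other library, and Tgfbr3 stands above 5 TPM only in 6419c5 WT.

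Several facts of the whole series touch these values. Epha2 averaged 115 TPM in KOA and 97.8 in KOB, against 245 in WT of 6694c2, but 151 in KOA and 197 in KOB, against 176 in WT of 6419c5. Its message was thus called lower in neither KO line of 6419c5, with log2 fold changes of -0.22 ± 0.12 in the libraries labelled KOA (adjusted p = 0.173) and 0.16 ± 0.12 in those labelled KOB (adjusted p = 0.312). Since the edit is not described, the level checks the labels only in part. Within 6694c2 KOA, libraries 1 and 2 (r = 0.981 across genes) and libraries 3 and 4 (r = 0.988) were closer to each other than across (0.966 to 0.972), so calls that change when either pair is left out are given beside the results. Markers of tumour epithelium led in every library, at 5654 TPM or more for 7 summed genes, while 5 T cell markers summed to at most 8.71 TPM and 5 endothelial markers to at most 18.4. The 12 macrophage markers summed to between 207 and 4312 TPM and the 9 fibroblast and pericyte markers to between 29.0 and 1209. In bulk libraries, fewer cells of a type and less RNA per cell cannot be told apart. The gene Mir6236 held 14.5% of all TPM in 6694c2 KOB library 4 and 9.11% in 6419c5 WT library 3, against 2.27% to 5.45% elsewhere. TPM adds to a fixed sum, so a higher share of 1 gene leaves less for all others. Scaling each library to a common median or distribution moved the median of all genes by up to -0.11 (log2) in KOB against WT of 6419c5. It also moved the split of all calls in KOA against WT of 6694c2 to 1715 higher and 2109 lower, in place of 2174 and 1084. No called member changed direction under these or any other settings tried.

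Differences between lines were tested with limma on log2(TPM + 1), a scale that understates the change of scarce genes such as Tgfb2 and Tgfbr3. A gene was called at a Benjamini-Hochberg adjusted p under 0.05 over the 14337 genes tested. The KOB line of 6694c2 had the most calls of the 4 KO lines: 9 of the 10 genes, 8 lower and 1 higher, where 48.6% of all tested genes were called (19.4% lower, 29.2% higher). The median log2 fold change of the 10 genes there was -0.56, against 0.07 over all genes. In KOA against WT of 6694c2 only Tgfb1 was called, and it was higher, where 22.7% of all genes were called (15.2% higher, 7.56% lower), and the median of the 10 was 0.06, against 0.08 over all genes. In 6419c5, KOA had 4 genes lower and none higher, beside 31.8% of all genes called (12.7% lower, 19.1% higher), and the median was -0.31, against 0.04. KOB of 6419c5 had 3 genes lower and 1 higher, beside 43.3% of all genes called (14.7% lower, 28.5% higher), with a median of -0.07, against 0.10. Over both directions, the share of called members was thus 90% in KOB of 6694c2, 10% in KOA of 6694c2 and 40% in each KO line of 6419c5. Among 10 genes a difference of 1 call is small, so only KOB of 6694c2 stood well apart from its background. By direction, all 4 calls in KOA of 6419c5 were lower, beside 12.7% of all genes. In KOB of 6694c2 the fibroblast and pericyte sum was also lower than in WT, at 29.0 to 43.1 TPM, against 86.9 to 122, while the tumour epithelium sum was 7241 to 8269 TPM, against 7241 to 8756. That sum hides opposite changes, since of its 7 markers 2 were called higher and 2 lower there (57.1%, beside 48.6% of all genes). All 12 macrophage markers had a negative fold change there (median -1.18, 1 called), with sums of 207 to 486 TPM, against 329 to 1485 in WT. Their part in these calls was not tested. Both KO lines of a clone were set against the same WT libraries, which makes their calls dependent on each other.

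**Figure D2:**
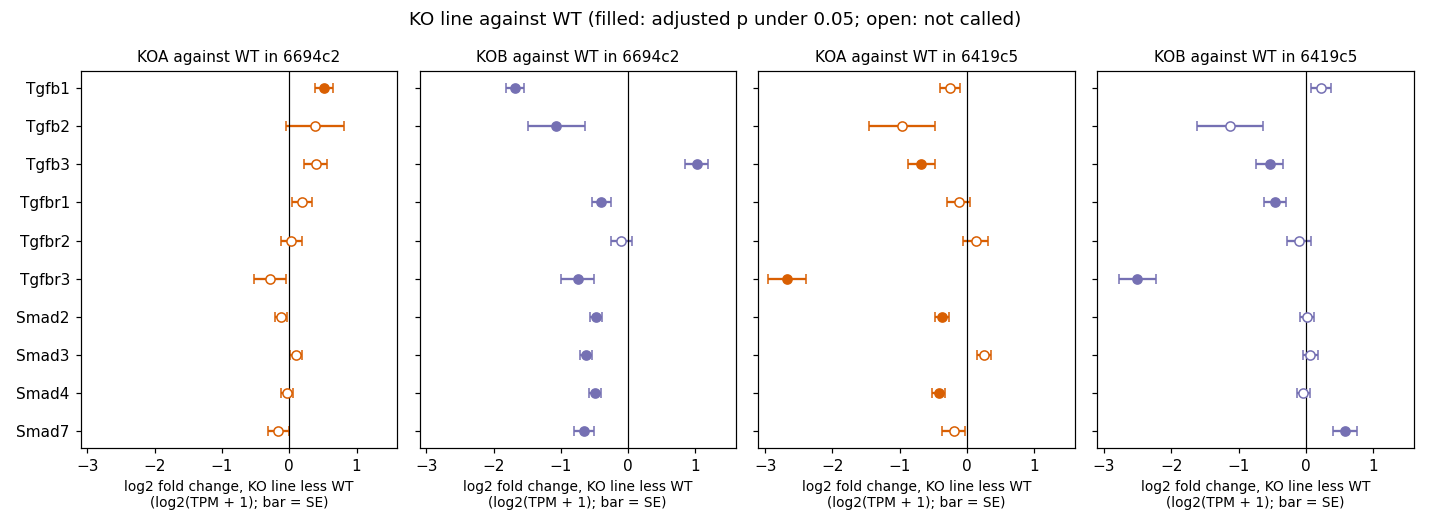
Log2 fold change of each gene in each KO line less its WT line, on the log2(TPM + 1) scale, with SE bars; filled points had an adjusted p under 0.05 in limma. The second panel shows 8 filled points to the left of 0 and Tgfb3 to the right, and Tgfbr3 lies at -2.67 and -2.51 in the panels of 6419c5.

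Tgfb1 (chromosome 7, 25687002 to 25705077, mm10) encodes the most abundant TGF-beta ligand of most tumours. It measured 259, 244, 343 and 378 TPM in KOA and 65.7, 64.0, 67.3 and 63.0 TPM in KOB, against 217, 226, 194 and 205 TPM in WT of 6694c2. All KOA libraries lay above and all KOB libraries below all WT libraries. KOA rose by a log2 fold change of 0.52 ± 0.13 (SE, adjusted p = 0.0093), whereas KOB fell, with a fold change of -1.68 ± 0.13 (adjusted p = 1.31e-08). The call in KOA rested on libraries 3 and 4: without them the fold change was 0.26 (adjusted p = 0.203). In 6419c5 the levels were 70.6, 107 and 91.3 TPM in KOA and 122, 128 and 120.4 TPM in KOB, against 92.2, 100.1 and 127 TPM in WT. Both KO lines overlapped WT there and neither was called (-0.25, adjusted p = 0.235, and 0.22, adjusted p = 0.252).

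Tgfb2 (chromosome 1, 186622787 to 186709697) encodes the ligand that depends most on betaglycan. It measured 1.25, 0.617, 7.96 and 7.16 TPM in KOA and 0.486, 0.500, 0.453 and 0.463 TPM in KOB, against 2.1002, 2.11, 1.88 and 2.297 TPM in WT of 6694c2. The KOA libraries thus split into 2 below and 2 above all WT libraries, while the KOB libraries were all below WT and within a narrow range. In KOB the log2 fold change was -1.07 ± 0.43 (adjusted p = 0.0454), a call lost when any single KOB or WT library of the clone was left out (adjusted p 0.0676 to 0.0844) and also without any of 7 libraries of 6419c5, all but WT 1 and 3 (0.0507 to 0.0525). In KOA it was 0.38 ± 0.43 (adjusted p = 0.559), and 1.47 with libraries 3 and 4 alone (adjusted p = 0.00119), but -0.70 with libraries 1 and 2 alone (adjusted p = 0.121). The 6419c5 libraries held 1.76, 1.66 and 1.72 TPM in KOA and 1.93, 1.43 and 1.03 TPM in KOB, against 1.83, 4.93 and 7.89 TPM in WT. WT library 1 lay at the KO level and the other two above it, and neither line was called (-0.97, adjusted p = 0.149, and -1.12, adjusted p = 0.0732). Without that library both differences passed the test (-1.42, adjusted p = 0.0459, for KOA, -1.57, adjusted p = 0.0212, for KOB). The KOB difference also passed without 6694c2 KOA library 2 (0.0320) or 3 (0.0440), which enter the shared estimate of spread, and both 6419c5 differences passed without either pair of these KOA libraries (0.00264 to 0.012). After scaling each library to a common median or distribution, the KOB difference of 6419c5 passed as well (0.0448 and 0.0402).

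Tgfb3 (chromosome 12, 86056743 to 86079041) encodes the ligand known from palate fusion and wound repair, and it moved against the other ligands in KOB of 6694c2. It measured 11.2, 14.02, 15.1 and 15.5 TPM in KOA and 24.4, 27.5, 23.8 and 14.4 TPM in KOB, against 8.25, 11.7, 11.52 and 10.2 TPM in WT. Every KOB library and 3 of 4 KOA libraries lay above all WT libraries. The log2 fold change of KOB was 1.02 ± 0.17 (adjusted p = 9.05e-05), that of KOA 0.39 ± 0.17 (adjusted p = 0.117, or 0.0473 without KOB library 4). In 6419c5 it was lower in both KO lines, at 20.1, 17.97 and 22.4 TPM in KOA and 29.2, 20.4 and 18.6 TPM in KOB, against 35.6, 28.9 and 34.3 TPM in WT. KOA did not overlap WT, and KOB library 1 reached the WT range. The fold change of KOA was -0.68 ± 0.20 (adjusted p = 0.0144), and that of KOB was -0.54 ± 0.20 (adjusted p = 0.039). Leaving out WT library 1 (0.0515) or KOA library 2 (0.0555) ended the KOA call. Leaving out WT library 1 (0.106), WT library 3 (0.0946), KOB library 2 (0.116) or KOB library 3 (0.157) ended the KOB call.

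Tgfbr1 (chromosome 4, 47353222 to 47414926), the type I receptor kinase, measured 23.9, 24.8, 38.0 and 32.7 TPM in KOA and 19.4, 17.4, 20.7 and 19.2 TPM in KOB, against 26.1, 24.8, 25.3 and 26.0 TPM in WT of 6694c2. KOB lay wholly below WT (-0.40 ± 0.15, adjusted p = 0.0317), and KOA lay on both sides of it (0.19 ± 0.15, adjusted p = 0.378, or 0.45, adjusted p = 0.0344, without libraries 1 and 2). Its levels in 6419c5 were 22.4, 17.3 and 23.1 TPM in KOA and 16.6, 19.2 and 13.5 TPM in KOB, against 18.3, 28.2 and 22.8 TPM in WT. Both KO lines overlapped WT. KOB was called lower (-0.46 ± 0.17, adjusted p = 0.0354), while KOA was not (-0.13, adjusted p = 0.618). Both KOB calls were weak. In 6694c2 the call was lost without KOB library 1, 2 or 4 or WT library 1, 3 or 4 (adjusted p 0.0518 to 0.0848), and in 6419c5 without KOB library 1 or 3 or WT library 2 or 3 (0.0634 to 0.176).

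Tgfbr2 (chromosome 9, 116087695 to 116175363), the type II receptor that binds ligand, was the one gene called in none of the 4 KO lines. It measured 25.1, 23.0, 34.3 and 35.8 TPM in KOA and 25.3, 30.8, 27.9 and 22.5 TPM in KOB, against 28.1, 33.3, 26.3 and 26.6 TPM in WT of 6694c2. It measured 40.2, 63.3 and 53.5 TPM in KOA and 49.0, 40.7 and 42.0 TPM in KOB, against 39.5, 56.5 and 46.5 TPM in WT of 6419c5. Each KO line overlapped its WT line. The 4 log2 fold changes ran from -0.10 to 0.13, each with an SE of 0.16 or 0.18, so smaller changes could have been missed.

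Tgfbr3 (chromosome 5, 107106567 to 107289629), the betaglycan gene, showed the widest range of the 10, with a mean in the highest line 46.2 times that in the lowest. In 6419c5 it measured 0.419, 0.599 and 0.379 TPM in KOA and 0.681, 0.606 and 0.646 TPM in KOB, against 5.40, 6.81 and 15.3 TPM in WT. Every KO library was under 1 TPM and every WT library above 5. The log2 fold change of KOA was -2.67 ± 0.28 (adjusted p = 1.1e-06), that of KOB was -2.51 ± 0.28 (adjusted p = 1.42e-06), and both kept their call under all settings tried. In 6694c2 it measured 0.2995, 0.167, 0.978 and 1.46 TPM in KOA and 0.0783, 0.156, 0.307 and 0.252 TPM in KOB, against 1.24, 0.877, 0.936 and 1.01 TPM in WT. KOB lay wholly below WT (-0.75 ± 0.24, adjusted p = 0.0147), while KOA had libraries 1 and 2 below WT and library 4 above it (-0.29, adjusted p = 0.422). Fibroblast and pericyte markers were also lower in both KO lines of 6419c5 and in KOB of 6694c2, but not in KOA of 6694c2. Their 9 genes summed to 170 to 194 TPM in KOA and 306 to 489 in KOB, against 522 to 1209 in WT of 6419c5, and 6419c5 WT library 3 had both the highest sum and the highest Tgfbr3. In 6694c2 they summed to 84.7 to 299 TPM in KOA and 29.0 to 43.1 in KOB, against 86.9 to 122 in WT, and KOA library 1 had a sum of 203 TPM with Tgfbr3 at 0.2995 TPM. Of the 9 markers, 7 were called lower in KOA of 6419c5 (31.8% of all genes called), 3 lower and 1 higher in KOB of 6419c5 (43.3% of all genes), 5 lower in KOB of 6694c2 (48.6%) and 1 higher in KOA of 6694c2 (22.7%). None of the 9 was at 0 in all libraries of a line. The 12 macrophage markers summed to 333 to 4312 TPM in KOA and 445 to 593 in KOB, against 990 to 2569 in WT of 6419c5, with 6 lower and 1 higher in KOB and none called in KOA, whose highest value came from library 2. The 7 tumour epithelium markers summed to 13860 to 15373 TPM in KOA and 12262 to 16322 in KOB, against 5654 to 7575 in WT of 6419c5, so their summed message was lower in WT of that clone. Of the 7, 5 were called higher and none lower in KOA (31.8% of all genes called), and 5 higher and 1 lower in KOB (43.3%). The part of these markers in the level of Tgfbr3 was not tested.

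**Figure D3:**
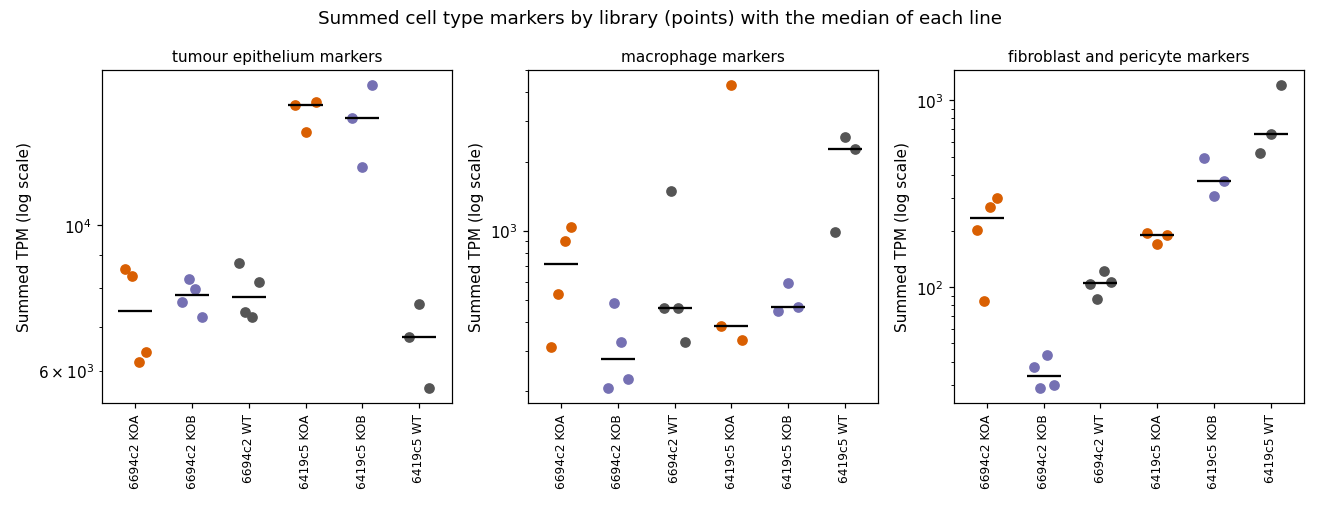
Summed TPM (log axis) of 7 tumour epithelium, 12 macrophage and 9 fibroblast and pericyte markers in each library, with the median of each line as a bar. Fibroblast and pericyte markers are highest in 6419c5 WT (522 to 1209 TPM) and lowest in 6694c2 KOB (29.0 to 43.1 TPM).

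Among the SMAD genes, Smad2 (chromosome 18, 76241090 to 76311748), which the type I receptor activates, measured 12.5, 12.2, 15.3 and 13.3 TPM in KOA and 9.85, 10.7, 10.1 and 10.2 TPM in KOB, against 14.01, 15.1, 15.0 and 14.3 TPM in WT of 6694c2. KOB lay wholly below WT (-0.47 ± 0.09, adjusted p = 0.000235) and KOA had 3 libraries below it and 1 above it (-0.13, adjusted p = 0.322). After scaling each library to a common median or distribution, KOA was called lower (-0.22, adjusted p = 0.0225, and -0.22, adjusted p = 0.0217). Libraries of 6419c5 held 9.91, 9.42 and 9.82 TPM in KOA and 13.03, 13.95 and 12.2 TPM in KOB, against 10.5, 13.9 and 14.6 TPM in WT. Here KOA lay below all WT libraries (-0.37 ± 0.10, adjusted p = 0.00937, or 0.0575 without WT library 3), and KOB overlapped WT (0.02, adjusted p = 0.898). Smad2 varied least of the 10, by 0.54 on the log2 scale between the highest and lowest line.

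Smad3 (chromosome 9, 63646766 to 63757994), another receptor-activated SMAD, which binds the SMAD box itself, was the most abundant in 6694c2 of the SMAD genes described here. It measured 120, 104, 144 and 142 TPM in KOA and 77.2, 82.3, 77.6 and 67.6 TPM in KOB, against 120.4, 119, 115 and 117 TPM in WT. KOB lay wholly below WT (-0.63 ± 0.10, adjusted p = 2.83e-05). KOA lay on both sides of WT (0.10 ± 0.10, adjusted p = 0.493), with libraries 3 and 4 above it (0.28, adjusted p = 0.0332, without libraries 1 and 2). The levels in 6419c5 were 54.2, 53.9 and 60.8 TPM in KOA and 55.7, 48.8 and 44.3 TPM in KOB, against 43.3, 46.9 and 51.3 TPM in WT. KOA was above all WT libraries but was not called (0.25 ± 0.11, adjusted p = 0.0929, or 0.0326 to 0.0469 without 6694c2 KOA library 2 or either pair of its libraries), and KOB overlapped WT (0.07, adjusted p = 0.646). After scaling each library to a common median, KOA was called higher (0.20, adjusted p = 0.0386).

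Smad4 (chromosome 18, 73634790 to 73703791), the common partner, was present in every library. It measured 80.4, 78.1, 92.5 and 88.0 TPM in KOA and 62.5, 61.5, 64.1 and 57.3 TPM in KOB, against 88.3, 83.0, 85.5 and 89.7 TPM in WT of 6694c2. KOB lay wholly below WT (-0.49 ± 0.09, adjusted p = 0.000102) and KOA overlapped it (-0.03, adjusted p = 0.813). Levels in 6419c5 were 43.5, 42.9 and 47.1 TPM in KOA and 62.1, 57.2 and 55.9 TPM in KOB, against 48.6, 64.0 and 69.1 TPM in WT. KOA lay below WT (-0.42 ± 0.10, adjusted p = 0.0029) and KOB within its range (-0.04, adjusted p = 0.787). After scaling each library to a common distribution, KOB was called lower (-0.20, adjusted p = 0.0437).

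Smad7 (chromosome 18, 75367365 to 75395935), the inhibitory SMAD that the pathway itself induces, measured 63.9, 58.5, 88.7 and 88.9 TPM in KOA and 50.8, 57.7, 48.2 and 51.6 TPM in KOB, against 88.6, 85.7, 76.6 and 79.6 TPM in WT of 6694c2. KOB lay wholly below WT (-0.66 ± 0.15, adjusted p = 0.00134). In KOA, libraries 1 and 2 were below WT and libraries 3 and 4 above it by a small margin (-0.16 ± 0.15, adjusted p = 0.48). Levels of 6419c5 libraries were 29.1, 29.7 and 35.9 TPM in KOA and 45.4, 58.0 and 61.8 TPM in KOB, against 29.2, 33.7 and 47.9 TPM in WT. KOB was higher than WT (0.58 ± 0.17, adjusted p = 0.0112), with 2 of its 3 libraries above all WT libraries. Leaving out WT library 1 (0.0667) or KOB library 3 (0.0545) ended that call. KOA was not called (-0.20, adjusted p = 0.424).

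Set side by side, the libraries of a line moved in different ways. In 6694c2 KOB, 8 or 9 of the 10 genes were below the WT mean in each library, with library medians from -0.63 to -0.51. In 6694c2 KOA, 3 and 2 genes were above the WT mean in libraries 1 and 2, but 9 in each of libraries 3 and 4, with medians of -0.14, -0.21, 0.28 and 0.31. With libraries 3 and 4 alone, 4 genes were called against WT (Tgfb1, Tgfb2, Tgfbr1 and Smad3), and with libraries 1 and 2 alone none was. The pairs were chosen after seeing the data. The share of all genes called with each pair is not given here, so these counts cannot be set against a background. Most marker sums also split by these pairs. The granulocyte sums did not, at 26.1, 8.17, 17.9 and 14.8 TPM in libraries 1 to 4. Libraries 3 and 4 had 6185 and 6402 TPM of tumour epithelium markers, against 8578 and 8369 in libraries 1 and 2. They had 905 and 1039 TPM of macrophage markers, against 311 and 529. Fibroblast and pericyte sums were 268 and 299 TPM, against 203 and 84.7, and endothelial sums were 18.1 and 18.4 TPM, against 6.93 and 5.11. Their part in the split of the members was not tested.

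**Figure D4:**
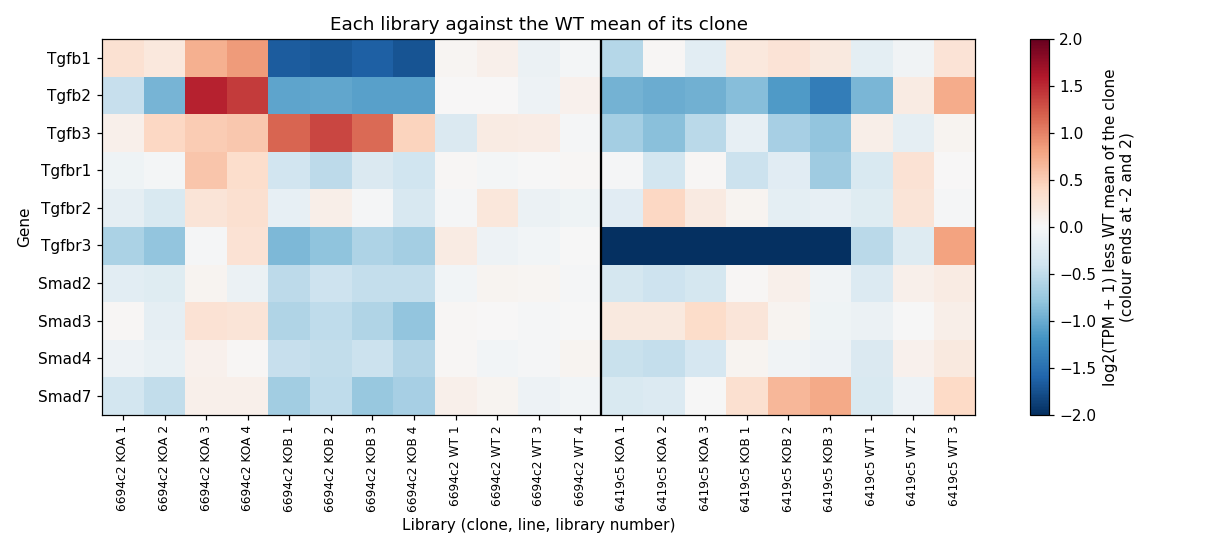
Colour gives log2(TPM + 1) of each gene (down) in each library (across) less the WT mean of its clone, with the colour scale ending at -2 and 2. The 4 libraries of 6694c2 KOB are blue for 8 genes and red for Tgfb3, the 6694c2 KOA libraries change colour between 2 and 3, and Tgfbr3 is darkest in the 6 KO libraries of 6419c5.

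The KO lines of a clone were also compared with each other. In 6694c2, KOA against KOB differed for 8 of 10 genes, where 46.5% of all tested genes were called. Tgfb1 (2.19 ± 0.13, adjusted p = 7.81e-10), Tgfb2 (1.45), Tgfbr1 (0.59), Smad2 (0.34), Smad3 (0.73), Smad4 (0.46) and Smad7 (0.50) were higher in KOA, and Tgfb3 (-0.63, adjusted p = 0.00655) was lower. Without KOA libraries 3 and 4, 4 of the 8 were called, and Tgfb2, Tgfbr1, Smad2 and Smad7 were not. Without KOA libraries 1 and 2 Tgfb3 was not called (adjusted p = 0.0655). Tgfbr3 (0.46, adjusted p = 0.125) passed without KOA library 2 (0.0409) or 6419c5 WT library 3 (0.0446), and was 0.88 (adjusted p = 0.00777) without KOA libraries 1 and 2. In 6419c5, 4 of 10 genes differed, where 17.4% of all genes were called, and all 4 were lower in KOA than in KOB. They were Smad7 (-0.78 ± 0.17, adjusted p = 0.00458), Tgfb1 (-0.48 ± 0.15, adjusted p = 0.0403), Smad2 (-0.39 ± 0.10, adjusted p = 0.0136) and Smad4 (-0.38 ± 0.10, adjusted p = 0.0117). The Tgfb1 call was lost without any single KOB library or KOA library 1 or 3 (adjusted p 0.0707 to 0.202), and also without 6694c2 WT library 4 (0.05004). The Smad2 call was lost without KOB library 2 (0.0656). After scaling each library to a common distribution, Tgfb1 was no longer called (0.0708), and Smad3 was called higher in KOA (0.27, adjusted p = 0.0291). Smad3 was also called after scaling to a common median (0.26, adjusted p = 0.0176).

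Averaged over both KO lines, 6 genes were called in KO against WT of 6694c2, where 37.4% of all genes were called. Tgfb1 (-0.58 ± 0.12, adjusted p = 0.000653), Smad2 (-0.30), Smad3 (-0.26), Smad4 (-0.26) and Smad7 (-0.41) were lower and Tgfb3 (0.71 ± 0.15, adjusted p = 0.00122) was higher. The Tgfb1 average joins lines on opposite sides of WT. In KO against WT of 6419c5, 3 genes were called, all lower, beside 41.4% of all genes: Tgfb3 (-0.61 ± 0.17, adjusted p = 0.00912), Tgfbr3 (-2.59 ± 0.24, adjusted p = 1.67e-07) and Smad4 (-0.23 ± 0.09, adjusted p = 0.038). Smad4 lost that call without any of 6 single libraries: WT 2 or 3, KOA 1 or 2, or KOB 2 or 3 (adjusted p 0.0615 to 0.274). In 6694c2, Smad3 lost its call without WT library 1 (0.0516) and Smad7 without WT library 1 (0.0628) or 2 (0.0520). Without KOA libraries 1 and 2 both lost it (Smad3 0.0598, Smad7 0.0763). Without KOA libraries 3 and 4, Tgfb2 passed as lower (-0.88, adjusted p = 0.00504, against -0.34, adjusted p = 0.503, with all libraries), as did Tgfbr3 (-0.73, adjusted p = 0.00605). Some genes that were not called passed when 1 library was left out or another scaling was used. In KO against WT of 6419c5, Tgfbr1 (0.0360) and Smad2 (0.00598) passed without WT library 1. With all libraries scaled to a common median or distribution, Tgfbr1 (0.019 and 0.0143), Smad2 (0.00495 and 0.0031) and Tgfb2 (0.036 and 0.0362) passed. Tgfb2 there (-1.04, adjusted p = 0.0571) passed without WT library 1 (0.0160) or any single KOA library of 6694c2 (0.0225 to 0.0469) or either pair of them (0.0015 and 0.00206). In KO against WT of 6694c2, Tgfbr3 (-0.52, adjusted p = 0.0578) passed without KOA library 3 (0.0485) or 4 (0.0198) or 6419c5 WT library 1 (0.0390) or 3 (0.0147). It also passed after both scalings (0.0268 and 0.0142). A further model, with a random line effect, let the libraries of a line be correlated, with 1 value for all genes (0.546). Libraries stayed its units and each WT group was 1 line, so it was not a test between lines. It called none of the 6 genes of 6694c2 and only Tgfbr3 of 6419c5, beside 0.907% of all genes in 6694c2 and 4.11% in 6419c5.

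The difference between the clones, the KO effect of 6694c2 less that of 6419c5, was called for 5 genes, beside 28.6% of all genes. It was positive for Tgfb3 (1.31 ± 0.23, adjusted p = 0.000359) and Tgfbr3 (2.07 ± 0.32, adjusted p = 0.000105). It was negative for Tgfb1 (-0.57 ± 0.18, adjusted p = 0.022), Smad3 (-0.42 ± 0.13, adjusted p = 0.0179) and Smad7 (-0.60 ± 0.20, adjusted p = 0.03). For Tgfbr3 both KO effects were negative, -0.52 in 6694c2 (not called) and -2.59 in 6419c5. Its WT mean was 1.02 TPM in 6694c2 and 9.17 TPM in 6419c5, so log2(TPM + 1) left less room for a fall in 6694c2. Tgfb3 is the gene whose effects had opposite signs and were both called, higher in KO of 6694c2 and lower in KO of 6419c5. Leaving out WT library 1 (adjusted p = 0.0759) or 2 (0.0569) of 6419c5 ended the Tgfb1 call, and leaving out the first of these ended the Smad3 call (0.0596). The Smad7 difference was lost without any of 6 single libraries: 6694c2 WT 1 or 2, 6419c5 WT 1 or 2, 6419c5 KOA 3 or 6419c5 KOB 3 (0.0511 to 0.111). With a random line effect none of the 5 was called, where 0.272% of all genes were. Without KOA libraries 1 and 2 of 6694c2 the difference of Tgfb2 passed (1.24, adjusted p = 0.00692).

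The WT lines of the clones differed from each other in 7 of the 10 genes, where 53.5% of all genes were called. Tgfb1 (0.99 ± 0.14, adjusted p = 1.6e-05), Smad3 (1.31 ± 0.10, adjusted p = 1.22e-08), Smad4 (0.52 ± 0.09, adjusted p = 0.00011) and Smad7 (1.17 ± 0.16, adjusted p = 9.12e-06) were higher in 6694c2 WT than in 6419c5 WT. Tgfb3 (-1.58 ± 0.19, adjusted p = 1.66e-06), Tgfbr2 (-0.70 ± 0.17, adjusted p = 0.00191) and Tgfbr3 (-2.21 ± 0.26, adjusted p = 1.36e-06) were lower. The receptor Tgfbr2 was thus called between clones and in no KO line against its WT line. Tgfb2 passed as lower without 6419c5 WT library 1 (-1.23, adjusted p = 0.0417) or either pair of 6694c2 KOA libraries (adjusted p = 0.014 and 0.0174), and Smad2 as higher without 6419c5 WT library 3 (0.25, adjusted p = 0.0495). Smad2 also passed after scaling each library to a common median (0.27, adjusted p = 0.00431) or distribution (0.28, adjusted p = 0.00302). By mean level, the order of the 6 lines for Tgfb1 was 6694c2 KOA, 6694c2 WT, 6419c5 KOB, 6419c5 WT, 6419c5 KOA and 6694c2 KOB, and only the 3 lines of 6419c5 overlapped their neighbours. For Smad3 all 3 lines of 6694c2 stood above all 3 of 6419c5, whose libraries overlapped. For Tgfbr1 and Smad2 every line overlapped its neighbour in the order.

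The proteins that store, free or bind the ligand formed a list of 24 genes, 23 of them tested. In KOB of 6694c2, 13 were lower and 1 higher (60.9% of the list, beside 48.6% of all genes called, median -0.69), and in KOA 2 were lower and 1 higher (13%, beside 22.7%, median 0.18). In 6419c5, 8 were lower and 4 higher in KOA (52.2%, beside 31.8%, median -0.46), and 8 lower and 7 higher in KOB (65.2%, beside 43.3%, median -0.19). Itgb6, a subunit of the integrin that activates latent TGF-beta1 on epithelium, was higher in all 4 KO lines. It averaged 1.44 ± 0.641 TPM in KOA and 3.96 ± 0.711 in KOB, against 0.507 ± 0.110 in WT of 6694c2 (SD, n = 4 each). It averaged 7.83 ± 0.682 TPM in KOA and 5.99 ± 0.623 in KOB, against 1.82 ± 0.713 in WT of 6419c5 (SD, n = 3 each). The log2 fold changes were 0.66, 1.71, 1.67 and 1.33 in KOA and KOB of 6694c2 and KOA and KOB of 6419c5, with a largest adjusted p of 0.00724. Ltbp1, which anchors latent TGF-beta in the matrix, was lower in KOB of 6694c2 (-1.38 ± 0.11, adjusted p = 1.7e-08) and in KOA (-1.46 ± 0.13) and KOB (-1.35 ± 0.13) of 6419c5. In KOA of 6694c2 its log2 fold change was -0.23 (adjusted p = 0.153). Thbs1, a matrix protein that can free TGF-beta1, was lower in the same lines, with log2 fold changes of -2.14 ± 0.26, -2.06 ± 0.30 and -1.90 ± 0.30, and one of -0.40 in KOA of 6694c2 (adjusted p = 0.289).

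The remaining activators named here were Ltbp3, Mmp14 and Dcn. Ltbp3, another latent TGF-beta binding protein, averaged 269 ± 27.2 TPM in KOB, against 508 ± 33.3 in WT of 6694c2 (-0.92 ± 0.10, adjusted p = 6.02e-07). In 6419c5 it averaged 359 ± 43.2 TPM in KOB, against 210.4 ± 5.97 in WT (0.76 ± 0.12, adjusted p = 4.65e-05). Mmp14, a membrane protease, was lower in KOA (-0.29) and KOB (-0.88 ± 0.08, adjusted p = 8.94e-08) of 6694c2 and was not called in 6419c5. Dcn, the matrix proteoglycan decorin that binds TGF-beta and is also a fibroblast marker of the list above, averaged 6.42 ± 0.902 TPM in KOA and 10.7 ± 2.66 in KOB, against 138 ± 91.9 in WT of 6419c5. Its fold changes there were -4.00 ± 0.48 and -3.36 ± 0.48 (adjusted p = 5.37e-06 and 2.36e-05). The fibroblast and pericyte sum given above, also lower there, contains Dcn itself.

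Of 24 SMAD regulators and cofactors, 22 were tested. In 6694c2, 1 was higher and none lower in KOA (4.55% of the list, beside 22.7% of all genes called, median 0.05), and 4 were higher and 8 lower in KOB (54.5%, beside 48.6%, median -0.16). In 6419c5, 2 were higher and 5 lower in KOA (31.8%, beside 31.8%, median 0.02), and 5 higher and 5 lower in KOB (45.5%, beside 43.3%, median -0.0038). The called share was thus near that of all genes except in KOA of 6694c2, where it was below it. Strap, which helps Smad7 hold the receptor, and Tgif2, a SMAD corepressor, were lower in KOB of 6694c2 and in both KO lines of 6419c5. Strap averaged 128 ± 8.51 TPM in KOA and 119 ± 7.47 in KOB, against 229 ± 22.5 in WT of 6419c5 (-0.83 and -0.94). Tgif2 averaged 4.70 ± 0.354 TPM in KOA and 4.59 ± 0.487 in KOB, against 10.6 ± 0.910 in WT of 6419c5 (-1.02 and -1.05). Pmepa1, a TGF-beta-induced inhibitor of SMAD activation, was lower in KOB of 6694c2 (-0.80 ± 0.10, adjusted p = 2.78e-06) and KOA of 6419c5 (-0.37 ± 0.12, adjusted p = 0.0199). Fkbp1a, which keeps the type I receptor quiet, was lower in KOB of 6694c2 (-0.36 ± 0.07) and higher in KOA (0.62 ± 0.08) and KOB (0.48 ± 0.08) of 6419c5. Hgs, an endosomal protein that helps present SMADs to the receptor, was higher in KOA (0.72) and KOB (0.75) of 6419c5. Usp11, a deubiquitinase acting on the receptor, was lower in KOB of 6694c2 (-1.19) and KOB of 6419c5 (-0.86).

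The third list held 30 genes known as TGF-beta targets in various cells, 29 of them tested. In KOB of 6694c2, 22 were lower and 1 higher (79.3% of the list, beside 48.6% of all genes called, 19.4% lower and 29.2% higher, median -1.23), the line in which 8 of the 10 core genes were lower. In KOA of 6694c2, 7 were higher and 3 lower (34.5%, beside 22.7%, median 0.17). In 6419c5, 3 were higher and 10 lower in KOA (44.8%, beside 31.8%, median -0.24), and 10 higher and 7 lower in KOB (58.6%, beside 43.3%, median -0.10). Ctgf, also known as Ccn2, a matrix protein that YAP also induces, was the 1 target higher in KOB of 6694c2. It averaged 158 ± 33.1 TPM in KOA and 227 ± 33.5 in KOB, against 92.3 ± 8.24 in WT of 6694c2 (0.75 and 1.28), and 468 ± 36.9 TPM in KOB, against 275 ± 39.9 in WT of 6419c5 (0.77).

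Targets tied to matrix and mesenchymal change were among those that fell in KOB of 6694c2. Fn1, the fibronectin gene, averaged 404 ± 38.4 TPM in KOB, against 1751 ± 172 in WT (-2.11 ± 0.20, adjusted p = 1.07e-07), and was also lower in KOA (-1.35) and KOB (-1.08) of 6419c5. Itga5, the fibronectin receptor subunit, averaged 18.6 ± 2.401 TPM in KOB, against 134 ± 7.71 in WT of 6694c2 (-2.79 ± 0.24, adjusted p = 3.71e-08), and was lower in KOA of 6419c5 (-1.12). Hmga2, a chromatin protein linked to mesenchymal change, was lower in the same KOB line (-1.99) and in KOA (-1.18) and KOB (-1.39) of 6419c5. Lmcd1, a LIM domain cofactor, was lower in all 4 KO lines (-0.75 and -2.44 in KOA and KOB of 6694c2, -0.70 and -0.74 in KOA and KOB of 6419c5), though in 6419c5 it measured at most 2.04 TPM in any library. Of the 22 targets lower in KOB of 6694c2, 9 were also lower and 3, among them Bhlhe40 and Pdgfb, were higher in KOA of 6419c5. In KOB of 6419c5, 6 of the 22 were lower and 7 higher, among them Col1a1, Col1a2 and Postn, genes of matrix that fibroblasts also make. The fibroblast and pericyte sums given above moved in the same direction as these matrix genes in KOB of 6694c2 but not in KOB of 6419c5, and their part was not tested.

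**Figure D5:**
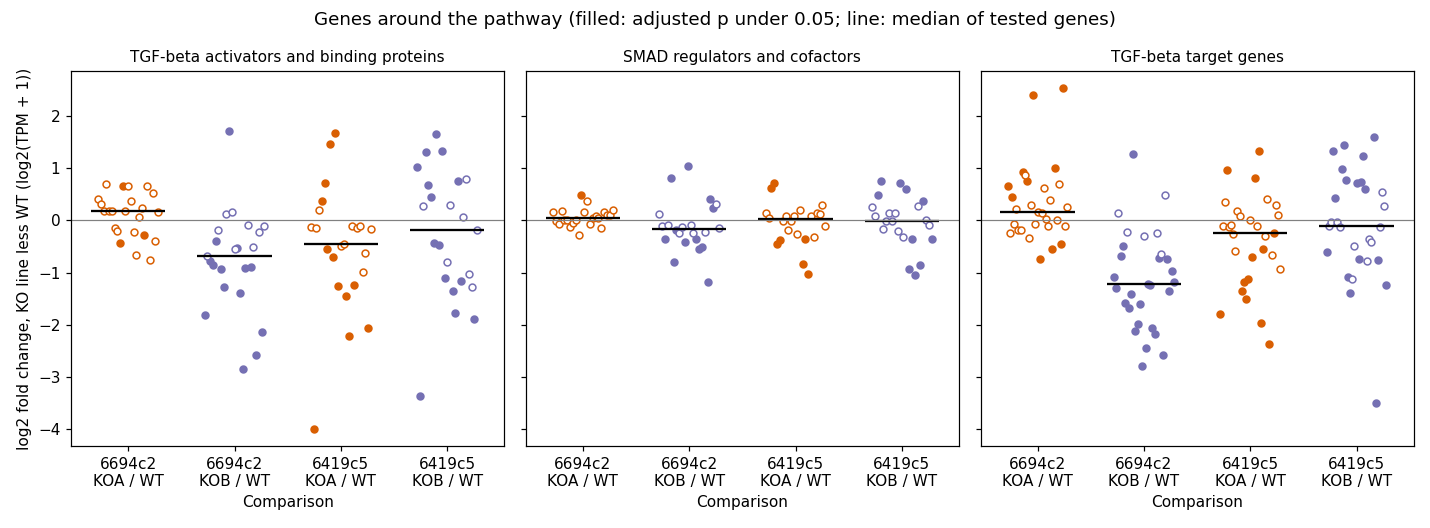
Log2 fold change of each tested gene of the 3 lists in each KO line less its WT line, on the log2(TPM + 1) scale; filled points had an adjusted p under 0.05 in limma and bars are medians. The targets of KOB in 6694c2 form the lowest column, with a median of -1.23.

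The genes most like a member in pattern were found by Pearson's r of log2(TPM + 1) over the 21 libraries, for the 3 members with the widest range of line means. For Tgfbr3 they were Gli3 (0.973), Ntn1 (0.965), Sprr1b (0.961) and Nrcam (0.958). For Tgfb1 they were Hmga1b (0.951), Fbln2 (0.950), Smtn (0.950) and Bhlhe41 (0.948); Hmga1b has a near-identical copy in Hmga1, so its value is uncertain. For Tgfb2 they were Qk (0.930), Abl2 (0.917), Bmpr2 (0.917) and Clasp1 (0.915). The libraries of a line share their cells of origin, so these values describe 6 lines more than 21 independent points. The values for Tgfbr3 rest on less. Gli3, Ntn1, Sprr1b and Nrcam each reached 1 TPM only in 6419c5 WT, the line in which Tgfbr3 was also highest. Their lowest value in a library of that line was 1.43 TPM (Nrcam). Their highest in any other line was 0.851 TPM (Gli3 in 6419c5 KOA). Their r with Tgfbr3 thus mostly sets 6419c5 WT against all other lines. Among the members, Smad4 and Smad7 were the most alike (0.889), and Tgfb3 ran against Smad3 (-0.746). Once the mean of each line was removed, that last pair was positively related (0.580).

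Small parts of 3 members lie over exons of other genes: 2.14% of the exon bases of Tgfb2 over Gm29491, 4.82% and 7.60% of those of Tgfb3 over Gm37804 and Gm48008, all on the opposite strand, and 4.54% of those of Tgfbr3 over Gm43422 on the same strand. None of the 4 is in the table, and whether the libraries kept strand is not given in the sources used here, so reads of these stretches cannot be told apart.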

How the data were processed

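Messenger RNA was sequenced from 21 libraries of sorted mouse pancreatic tumour cells. The authors deposited gene-level TPM values, made with Salmon on mm10 per the submitters' processing notes; the Salmon version and the annotation are not given in the sources used here. TPM adds to 1000000 per library and keeps no read depth, so no counting interval could be given and precision comes only from the spread between libraries. KO lines carry letters in the table but numbers in the labels; no source links these, so lines follow the column names. Library numbers are those of the columns.

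Models of log2(TPM + 1) were run with limma 3.58.1 (R 4.3.3, statmod 1.5.0); descriptions and figures used pandas 2.3.3, numpy 2.4.6 and matplotlib 3.10.9 (Python 3.11.15). The 14337 genes that reached 1 TPM in 3 or more libraries entered the tests. A single limma model with a mean for each of the 6 lines and a trended prior was fitted to all 21 libraries (15 residual and 3.12 prior degrees of freedom). Its moderated test was two-sided, with Benjamini-Hochberg adjustment over all genes tested. Errors are standard errors for fold changes and standard deviations for TPM. The steps were tested on simulated data in which libraries were independent, so that test does not cover correlation between libraries of a line.

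The members, the 3 further lists and the markers were chosen with earlier results of these data known, and no p was adjusted over a list alone. All members are named; of each list, the 6 genes with the smallest p in a KO line against WT; and for 3 members, the 4 genes most like each. Positions and start regions came from RefSeq on GRCm38.p6, the mm10 build. Alternatives changed the pseudocount, the filter, the scaling, the libraries used, the replicate block and the treatment of lines. Leaving out pairs of 6694c2 KOA libraries was chosen after seeing the data. The values of 1 named target gene are not reported here.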

Additional observations from a re-analysis of the deposited data

Results flagged for a closer look

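For 5 genes the KO effect differed between the clones in limma's test of the difference itself (6694c2 less 6419c5, log2, 8 KO and 4 WT libraries against 6 KO and 3 WT libraries). The difference was -0.57 for Tgfb1, where KOA and KOB of 6694c2 lay on opposite sides of WT. It was 1.31 for Tgfb3, which was higher in KO of 6694c2 and lower in KO of 6419c5. For Tgfbr3, with WT levels of 1.02 TPM in 6694c2 and 9.17 TPM in 6419c5, it was 2.07. The lower WT level left less room for a fall in 6694c2 on the log2(TPM + 1) scale. The difference was -0.42 for Smad3 and -0.60 for Smad7. None of these 5 differences was called with a random line effect, where 0.272% of all genes were.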

How the results depend on the processing

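Of 3110 recomputed fold changes of members under 33 settings, 2947 kept their status as called or not called, 101 lost the call and 62 gained it. No fold change that was called changed sign, while 58 that stayed uncalled did. Counts of called members moved by over 1.5 times as follows. In KOA against WT of 6694c2 (1 call), median-of-ratios scaling and quantile normalization gave 2, libraries 3 and 4 alone 4, libraries 1 and 2 alone 0, and leaving out 1 library 1 to 2. In KO against WT of 6419c5 (3 calls), both scalings gave 6, the random line effect 1 and single libraries 2 to 6. The random line effect gave 0 in KO against WT of 6694c2 (6 calls) and 0 for the difference between clones (5 calls, 2 to 5 without single libraries). KOA against KOB gave 4 in 6694c2 (8 calls) without KOA libraries 3 and 4, and 1 in 6419c5 (4 calls) with that clone alone, or 2 to 4 without single libraries. KOB against WT of 6419c5 (4 calls) ranged from 1 to 5 without single libraries. For KOA against WT of 6694c2, activators (3 calls) gave 5 without the 2 libraries of highest Mir6236, 6 without either pair of KOA libraries and 2 to 7 without single libraries. SMAD regulators there (1 call) gave 3 with median-of-ratios scaling or without libraries 3 and 4, 2 without the 2 libraries of highest Mir6236 or with that clone alone, and 0 to 3 without single libraries. Shares of all genes called are not given here for the settings that left libraries out, and the causes were not tested.

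Median-of-ratios scaling moved the split of all calls: 3647 higher and 3660 lower in KOB against WT of 6694c2 (4185 and 2787 before), 3247 and 3357 in KOB against WT of 6419c5 (4088 and 2113), 2716 and 3020 in KO against WT of 6694c2 (3429 and 1932), 3174 and 3120 in KO against WT of 6419c5 (3796 and 2146), 1431 and 1417 in KOA against KOB of 6419c5 (683 and 1818), and 4007 and 3926 between WT lines (3079 and 4590). Library numbers did not pair the samples: r ran from -0.15 to 0.17 over 21 same-number pairs, 6 of them over 0.1. With a replicate block, 8 members were called in KOB against WT of 6694c2, in place of 9, and 6574 of all genes in place of 6972. Without the 2 libraries of highest Mir6236, KOB of 6694c2 lost the calls of Tgfb2 (adjusted p = 0.0644) and Tgfbr1 (0.0586). Against WT of 6419c5, Tgfbr1 in KOB (0.0805), Smad2 in KOA (0.0585) and Smad4 in KO (0.26) were lost. Tgfbr3 in KO of 6694c2 was gained (0.0175). Rescaling without Mir6236 ended the calls of Tgfb1 between the KO lines of 6419c5 (0.0534) and of Smad7 between clones (0.0548).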
